A study of Mus musculus with 12 samples.

Results

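Lipopolysaccharide (LPS), a wall component of Gram-negative bacteria, was compared with no LPS in dendritic cells grown from mouse bone marrow in the presence of Ro41-5253 (Ro), an antagonist of retinoic acid receptor alpha. The comparison holds 4 of the 12 arrays of the series: 1 BALB/c and 1 BL6 culture with Ro alone, and 1 of each strain with Ro and LPS. They were chosen by their titles, and every probe set was compared, with strain pairing the arrays. Marrow from mice aged 6 to 8 weeks was cultured with GM-CSF at 20 ng/ml for 10 days, and Ro was present from the start, at 100 nmol/ml by the sample labels and 100 nmol, with no volume, by the design text. LPS was used at 1 ug/ml. The design text names it together with the reagents given from the start, and states no separate exposure time. The other 8 arrays are cultures of the same 2 strains without retinoid or with retinoic acid (RA, 10 nmol/ml or 10 nmol by the same sources), each with and without LPS. All 12 cultures share the GM-CSF. Whether each culture came from its own animal is not stated, so p-values measure only the spread between these arrays. Replicate 1 is always BALB/c and replicate 2 always BL6, so strain and any batch that ran with those numbers cannot be told apart. GM-CSF cultures of marrow are mixed, and hold macrophages and granulocyte precursors beside dendritic cells.

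LPS binds Toll-like receptor 4 with its partners CD14 and MD-2. The adaptor MyD88 leads from there to NF-kappaB and inflammatory cytokines, and the adaptor TRIF leads to interferon beta and interferon stimulated genes. Dendritic cells that sense LPS stop taking up antigen, raise costimulatory molecules and cytokines, and move towards lymph nodes. Retinoic acid receptors are nuclear receptors that bind DNA with retinoid X receptors, and in dendritic cells retinoic acid is known for shaping gut homing and regulatory signals.

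Values are probe set signals on a linear scale, and signals are given below for the BALB/c culture first and the BL6 culture second. A change is a difference of log2(signal + 16) between LPS and no LPS, relative to the median change of the 12429 genes tested (-0.34 before that correction), with the standard error (SE) of the model after the plus-minus sign. It comes from limma fitted to all 12 arrays, 2 arrays per condition. "Rose" and "fell" are used of genes with a Benjamini-Hochberg adjusted p under 0.05 in that direction both at the deposited scaling and after quantile normalization, and the larger of these 2 adjusted p-values is the one printed. The tests are of the change before correction for the median gene, so a few genes called lower lie close to the median. Signals under 41.8, the highest median of any array, are called background: a fold is 2 to the power of the change, none is given where a group's mean lay there, and the size of such a change depends on the added 16.

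Array medians were 38.3 and 34.8 with Ro and 22.5 and 29.8 with Ro and LPS, so overall signal moved with LPS. The ratio of 3' to 5' GAPDH probe sets was 0.768 to 0.842 over all 12 arrays, and that of beta-actin 1.10 to 1.16. Dendritic cell markers were present: Itgax, which encodes CD11c, had signals of 5279.7 and 4284 without LPS and 2079 and 1571 with it, and the class II gene H2-Ab1 11840.5 and 11565 without LPS and 11175 and 10858 with it. The transcription factor gene Zbtb46 had 501 and 391 without LPS and 357 and 343 with it. Xcr1, a marker of the cross-presenting subset, was at background on all 4 arrays (2.83 to 17.9).

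With LPS, 744 genes rose and 1899 fell in the Ro cultures, or 5.99% and 15.3% of those tested (21.3% together). The counts of the gene lists below are to be read beside these shares, and no list was tested as a set. Of the 2643, 2640 changed in the same direction in both strains, including all 744 that rose. The calls were made from these same changes, so this agreement is not a separate test. The rises exceeded 1 on the log2 scale for 706 genes and 3 for 89, and 182 genes fell by more than 3. The balance of directions moved with scaling: 20.0% of the genes called were higher at the deposited scaling alone (746 of 3728) and 44.1% after quantile normalization alone (1511 of 3430), against 28.1% under both. Pearson's r between BALB/c and BL6 changes was 0.838 and Spearman's rho 0.774, taken across genes, and genes are not independent replicates. Without the BALB/c or BL6 Ro array 1267 and 1580 genes were called, without the BALB/c or BL6 array with Ro and LPS 1465 and 1667, and without strain in the model 1545.

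**Figure D1:**
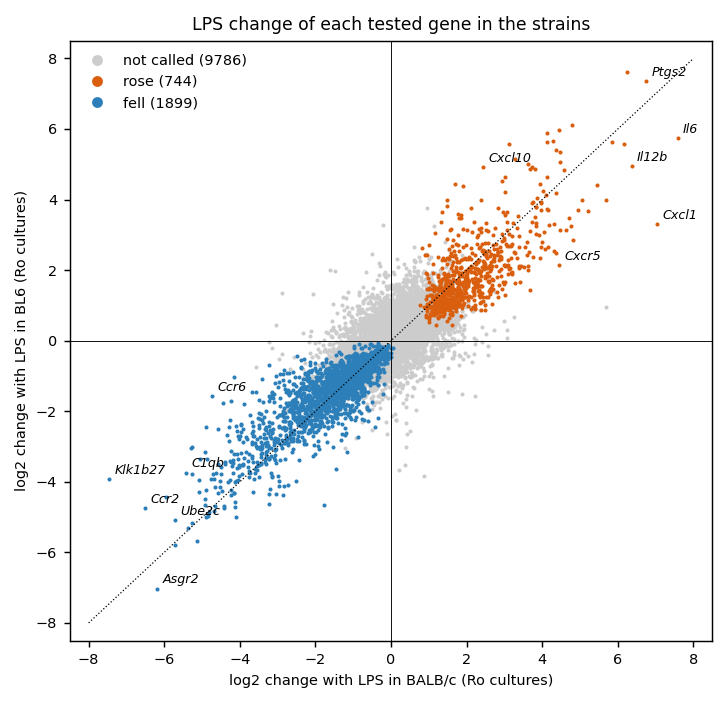
Log2 change with LPS of each of the 12429 tested genes in BALB/c (x axis) and BL6 (y axis) Ro cultures, each relative to that strain's median gene; orange points rose, blue points fell and grey points were not called. Most coloured points lie along the dotted line of equal change, and Cxcl1 lies well below it (7.03 in BALB/c and 3.30 in BL6).

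The 12 largest rises were led by mediators of inflammation. Ptgs2, which encodes the inducible cyclooxygenase of prostaglandin synthesis, had signals of 9.64 and 11.8 without LPS and 1951 and 3863 with it, a change of 7.04 ± 0.32. Il1a had 48.2 and 19.2 without LPS and 3403 and 5857 with it, and Il6 36.1 and 169 without LPS and 7061 and 8483 with it. Both were at or near background on at least 1 array without LPS and above 3000 on both arrays with it (6.90 ± 0.42 and 6.65 ± 0.48, the latter 100.4-fold). Il12b, which encodes the subunit shared by IL-12 and IL-23, had 214 and 429 without LPS and 13439.8 and 11770.0 with it and rose 49.9-fold (5.64 ± 0.44). For Il1b the signals were 574 and 181 without LPS and 9057 and 10499.8 with it (5.18 ± 0.55), with the higher starting level in BALB/c. Dusp14, a phosphatase of MAP kinases (5.84 ± 0.39), and Pla1a, a phospholipase that acts on phosphatidylserine (4.91 ± 0.31), completed those that are not chemokines or interferon genes. The groups did not overlap in any of these 7 genes, which were chosen for large changes on the same arrays. The lack of overlap is therefore not separate evidence.

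The 12 largest falls were led by receptors of antigen and carbohydrate uptake. Asgr2, a subunit of the asialoglycoprotein receptor, had signals of 5628 and 5941 without LPS and 38.8 and 23 with it and a change of -6.63 ± 0.47. Cd209a, a homologue of DC-SIGN, had 2298 and 3379 without LPS and 15.4 and 36.8 with it (-5.76 ± 0.44), and Clec10a, a lectin for galactose-type sugars, 1288 and 2230.4 without LPS and 16.2 and 44.9 with it (-4.93 ± 0.28). Ccr2, the receptor that brings monocytes into tissue, was at background with LPS (2106 and 1341 without LPS and 0.538 and 27.1 with it). Fcrls, an Fc receptor-like gene, fell 41.0-fold (-5.36 ± 0.54), and Clec4a2, an inhibitory lectin, 37.0-fold. The kallikrein genes Klk1b27 (-5.71 ± 0.84), Klk1b11 (-5.41 ± 0.24) and Klk1b21 (-4.84 ± 0.48) were also among them. They are near-identical copies of 1 family, so probes may be shared and the values are uncertain for each gene. Klk1b27 differed between the strains before LPS, with 5017 in BALB/c and 400.2 in BL6.

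**Figure D2:**
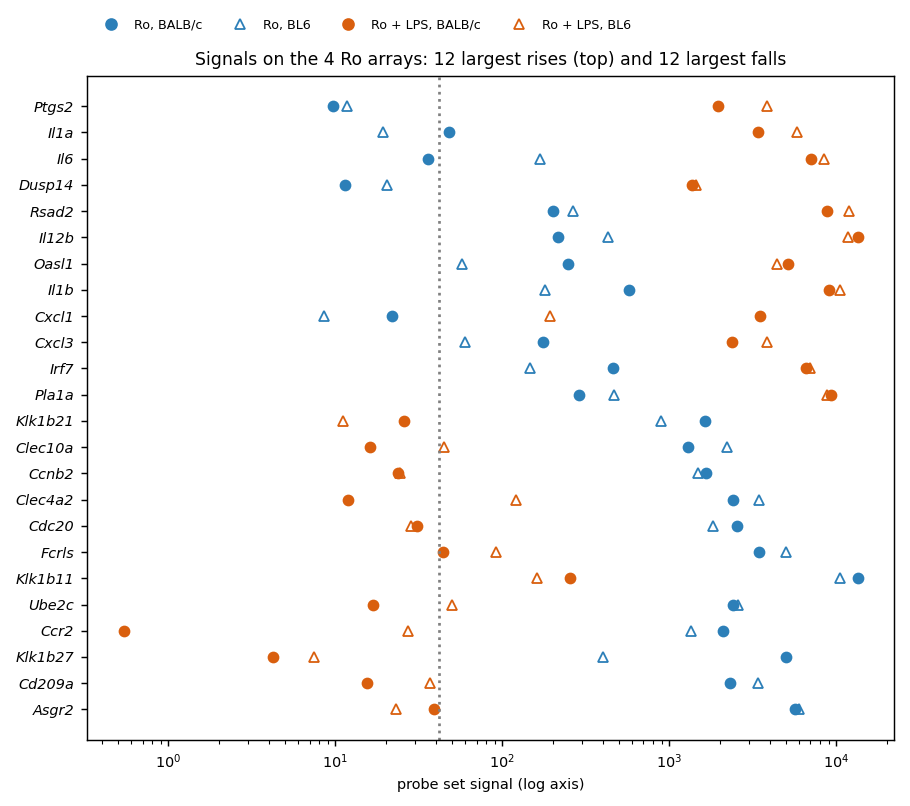
Signals (log axis) on the 4 Ro arrays for the 12 genes with the largest rise and the 12 with the largest fall; blue is Ro, orange Ro with LPS, filled circles BALB/c and open triangles BL6, and the dotted line is the background level of 41.8. Orange and blue points do not overlap for any of the 24 genes, which were chosen for large changes on these same arrays. Most of the falls end at or below the dotted line.

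Cytokine genes rose in 15 of 25 tested and fell in 2, with a median change of 1.97 against 0 for all genes by construction. Il12a, the partner of Il12b in IL-12, went from background to 178 and 423 (4.31 ± 0.55). The partner subunit of IL-23, Il23a, reached only 64.4 and 52.3 (1.81 ± 0.36). Il10, an anti-inflammatory cytokine, had 5.85 and 4.24 without LPS and 55.6 and 162 with it (2.77 ± 0.45). Tnf was not called: its signals of 625 and 505 without LPS and 449 and 1278 with it were lower with LPS in BALB/c and higher in BL6 (0.77 ± 0.85, adjusted p = 0.748), and relative to each strain's median gene the changes were 0.03 and 1.53. The falls were Ltb, which encodes lymphotoxin beta (-4.18 ± 0.82), and Tgfb1 (-0.65 ± 0.28), both named after their values were seen. Whichever of the 4 Ro arrays was left out, these 2 were not both called. Without strain in the model neither was. Without each of the 4 Ro arrays 13 or 14 cytokine genes rose, and Il23a lost its call without either BALB/c Ro array (adjusted p up to 0.112).

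Of 23 chemokine genes 12 rose and 2 fell, around a median of 1.61. The neutrophil attractants led: Cxcl1 (5.15 ± 0.91), Cxcl3 (5.0 ± 0.69) and Cxcl2 (4.90 ± 0.40). Cxcl2 had signals of 332 and 183 without LPS and 5494 and 6927 with it, nearly alike in the strains with LPS. Cxcl1 had 21.9 and 8.54 without LPS and 3503 and 192 with it, which is far higher in BALB/c, and it lost its call without strain in the model. The T cell attractants Cxcl10 and Cxcl11 rose as well, Cxcl10 from 163 and 159 to 672 and 4527 (3.66 ± 0.89). Both lost the call without either BL6 Ro array (adjusted p up to 0.138 for Cxcl10 and 0.0642 for Cxcl11). The platelet chemokine gene Ppbp fell (-2.23 ± 0.60), but not without the BALB/c array with Ro and LPS (adjusted p = 0.184) or the BL6 Ro array, and so did Ccl6 (-0.25 ± 0.13, named after its value was seen). The BL6 array with Ro and LPS bears on the list, since 5 chemokine genes rose and 4 fell without it, and 7 rose without the BL6 Ro array.

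Genes of NF-kappaB and its feedback rose in 17 of 25 and fell in none (median 1.76). Nfkbiz, a nuclear co-factor of NF-kappaB, rose 9.15-fold (267 and 156 without LPS and 1663 and 1488 with it) and Atf3, a transcription factor that restrains inflammatory genes, 7.76-fold. The MAP kinase phosphatase genes Dusp1 (2.61 ± 0.31) and Dusp2 (3.28 ± 0.61) rose too, Dusp2 from background. Leaving out any Ro array left 14 or 15 rises.

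Promoters of these genes were searched for the kappaB letters (GGG, any 2 bases, then TTTCC) on both strands. The search covered the 250 bases before each start site in the RefSeq table of build GRCm38.p6. A gene with several start sites counted if any of its promoters held a match, here and for the other motifs. The letters stood in 1.65% of all 27018 genes with a promoter there and in 1.84% of the tested ones. Among genes that rose it was 3.5% (20 of 571), and among genes that fell 1.27% (20 of 1570). Of the cytokine genes 4 of 19 held them, of the chemokine genes 4 of 15 and of the NF-kappaB genes 4 of 23. A match describes the letters and is neither a bound site nor a cause. Cxcl2 and Il6 are shown because both were among the strongest responders and hold matches. Capitals mark matches to the 4 motifs searched here: kappaB, the interferon response core (GAAA, any 2 bases, then GAAA), the cell cycle motif TTTGAA and CCAAT.
Cxcl2, chr5:90903649-90903898, plus strand: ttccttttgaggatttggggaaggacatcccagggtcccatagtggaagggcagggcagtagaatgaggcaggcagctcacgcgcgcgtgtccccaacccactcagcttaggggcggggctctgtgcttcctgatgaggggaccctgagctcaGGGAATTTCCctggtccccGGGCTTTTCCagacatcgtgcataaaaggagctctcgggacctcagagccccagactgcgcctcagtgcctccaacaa
Il6, chr5:30012864-30013113, plus strand: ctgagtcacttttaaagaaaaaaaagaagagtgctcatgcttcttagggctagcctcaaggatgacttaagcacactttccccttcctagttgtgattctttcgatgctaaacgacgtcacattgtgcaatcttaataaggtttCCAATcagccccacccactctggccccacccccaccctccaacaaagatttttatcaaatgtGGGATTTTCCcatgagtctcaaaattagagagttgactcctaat
Cxcl2 holds 2 kappaB matches within 100 bases of its start, and Il6 holds 1, together with a CCAAT match further upstream.

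Maturation genes rose in 15 of 25 and 1 fell (median 1.80). Cd40, the receptor through which T cells license dendritic cells, had 940.5 and 551 without LPS and 9138 and 7330.2 with it and rose 14.1-fold (3.82 ± 0.26). Larger changes were seen for Cd200, an inhibitory ligand (4.12 ± 0.27), and Cd70, a ligand of the costimulator CD27 (3.94 ± 0.30), and Slamf1 had 3.80 ± 0.48. The B7 genes Cd86 (2849 and 2052 without LPS and 11257 and 9951 with it) and Cd80 (726 and 829 without LPS and 3769.9 and 2857 with it) rose 5.53-fold and 5.28-fold. Cd83, a surface marker of maturity, rose 3.15-fold but lost its call without either BALB/c Ro array (adjusted p up to 0.0905). Ccr7, the lymph node homing receptor, was high before LPS (6034 and 5347 without LPS and 12413 and 12282 with it), and its change of 1.46 ± 0.36 was not called (adjusted p = 0.0744). The fall was Cd44 (-0.40 ± 0.21, named after its value was seen). It was not called without any 1 of the 4 Ro arrays, nor without strain in the model. Without the BALB/c Ro array 10 maturation genes rose.

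Interferon stimulated genes rose in 23 of 32 and fell in none, with the highest median of the 28 lists that are not cell type markers (2.41). Rsad2, which encodes the antiviral enzyme viperin, had 199.8 and 266 without LPS and 8793 and 11915 with it and rose 52.7-fold (5.72 ± 0.23). Oasl1 (5.44 ± 0.61), Slfn4 (4.87 ± 0.56) and Cmpk2 (4.25 ± 0.59), a mitochondrial nucleotide kinase gene beside Rsad2 on chromosome 12, followed. The list's median was 1.70 in BALB/c and 2.75 in BL6, a difference that was not tested with 1 pair of arrays in each strain. Rises numbered 11 without the BL6 array with Ro and LPS, 12 without the BL6 Ro array, 16 without the BALB/c Ro array, and 15 without strain in the model. Among regulators of the pathway 4 of 17 rose and 1 fell, against 5.99% and 15.3% of all tested genes. Irf7, the amplifier of type I interferon production, rose 31.0-fold (462 and 146 without LPS and 6601 and 6969.8 with it), Irf8 4.84-fold and Stat3 2.76-fold, while the interferon gamma receptor gene Ifngr1 fell (-1.35 ± 0.26).

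The interferon response core stood in the promoters of 11 of 22 interferon stimulated genes, against 3.20% of tested genes, 6.66% of genes that rose and 3.12% of those that fell. Rsad2 is shown for its single match, which lies on the opposite strand and so begins and ends with TTTC here.
Rsad2, chr12:26456453-26456702, minus strand: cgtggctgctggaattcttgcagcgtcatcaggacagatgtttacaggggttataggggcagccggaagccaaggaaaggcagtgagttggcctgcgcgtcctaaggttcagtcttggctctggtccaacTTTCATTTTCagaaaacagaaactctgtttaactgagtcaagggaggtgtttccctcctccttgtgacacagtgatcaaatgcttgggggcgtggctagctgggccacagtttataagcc
No kappaB match was found in the promoters of these 22 genes, which says only that these letters are not in the window.

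Enzymes of nitric oxide, itaconate and tryptophan metabolism rose in 9 of 16 and fell in none. Acod1, which makes itaconate, had 267 and 183 without LPS and 4128 and 7175 with it (4.87 ± 0.62). Nos2, the inducible nitric oxide synthase, reached 159 and 189 from background (3.81 ± 0.38). Slc7a2, an arginine transporter, rose 12.5-fold, and Hmox1, which breaks down heme, 7.82-fold. Arg1, the arginase that competes for the same arginine, was at background in both groups (3.53 and 3.93 without LPS and 40.6 and 40.1 with it), and its call (1.86 ± 0.49) did not survive the omission of any of 6 arrays (adjusted p = 0.182 without the BALB/c Ro array).

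Prostaglandin and leukotriene genes moved in opposite directions, 2 of 14 rising and 6 falling. Ptgs2 and Ptges, its partner in making prostaglandin E2 (3.28 ± 0.31), were the rises. The falls held the thromboxane synthase gene Tbxas1 (1590.2 and 1172 without LPS and 121 and 132 with it, 7.64-fold lower) and Hpgds, the synthase of prostaglandin D2 (-2.63 ± 0.31).

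**Figure D3:**
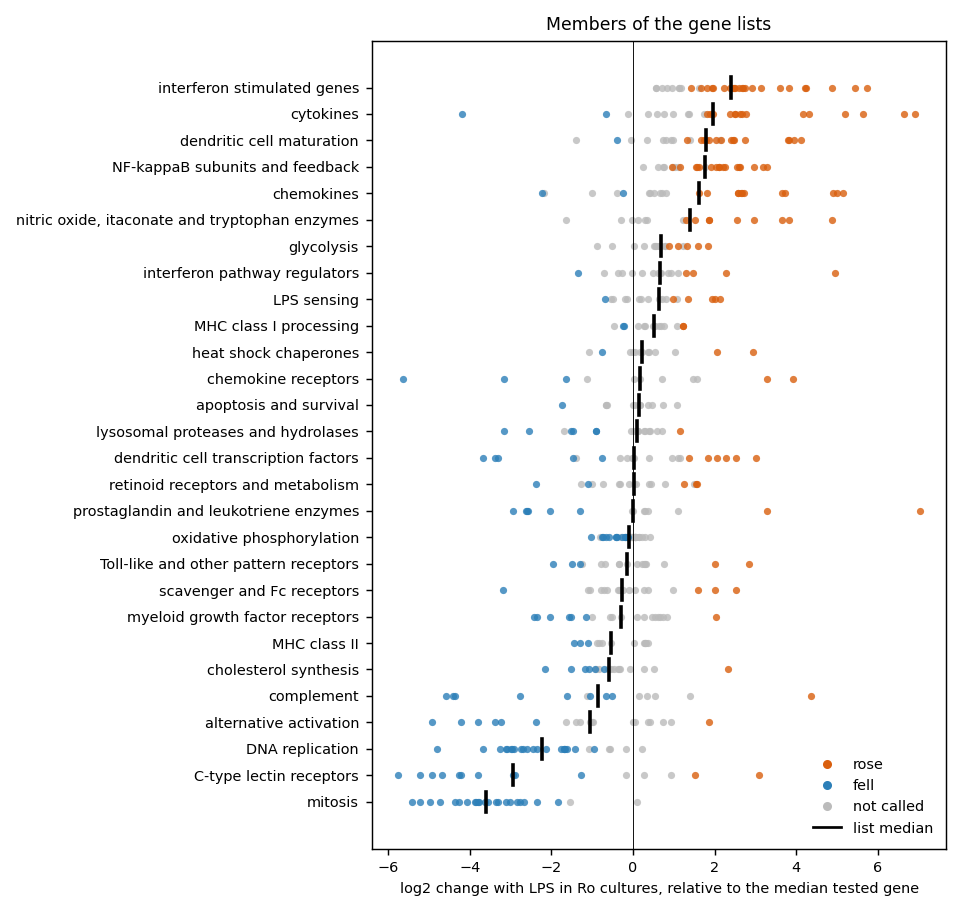
Log2 change with LPS in Ro cultures, relative to the median tested gene, of every tested member of the 28 gene lists that are not cell type markers; orange members rose, blue members fell, grey ones were not called, and black bars are list medians. Interferon genes and cytokines have the highest medians, and mitosis genes and C-type lectins the lowest.

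The LPS receptor itself changed unevenly. Tlr4 was not called (322 and 183 without LPS and 125 and 122 with it, -0.55 ± 0.47), while its partners Cd14 (3706 and 1207 without LPS and 8145 and 5545 with it, 4.01-fold) and Ly96, which encodes MD-2 (1.93 ± 0.38), rose. In the list of LPS sensing 5 of 17 genes rose, among them the kinase gene Ikbke (2.13 ± 0.26) and Ticam1, which encodes the adaptor TRIF (1.35 ± 0.27). The 1 that fell was Irak1 (-0.68 ± 0.25, named after its value was seen). Irak1 was not called without any 1 of the 4 Ro arrays, nor without strain in the model. Without any 1 of the 4 Ro arrays 2 or 3 genes of the list rose. Ly96 was lost without 3 of them (adjusted p up to 0.120) and Ticam1 without 3 (up to 0.182). Of 17 other Toll-like and pattern receptor genes 2 rose and 3 fell, against 5.99% and 15.3% of all tested genes. The rises were Casp4, a sensor of LPS inside the cell (7.13-fold), and Tlr1 (2.01 ± 0.39). The falls were Ly86 (-1.96 ± 0.54), the inflammasome adaptor gene Pycard (-1.49 ± 0.32) and Cd180 (-1.29 ± 0.34, named after its value was seen). Tlr1 and Ly86 were each lost without 2 of the 4 arrays (adjusted p up to 0.0847 and 0.130), Ly86 without either BALB/c one, and Pycard without strain in the model.

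C-type lectin receptors fell in 10 of 15 and rose in 2, with a median of -2.93. Besides those above, Clec4b1 had 1177 and 1065 without LPS and 17.6 and 20.3 with it (-4.68 ± 0.40), Mgl2 7370.0 and 7960.4 without LPS and 143 and 648 with it (-4.22 ± 0.63) and Mrc1, the mannose receptor, 338 and 2077 without LPS and 10.7 and 72.4 with it (-3.80 ± 0.57). Mgl2 and Clec10a are close copies, so their values are uncertain for each gene. The rises were Clec4e, which encodes Mincle, a sensor of mycobacterial lipid (3.09 ± 0.26), and Ly75, which encodes DEC-205 (1.52 ± 0.37), both named after their values were seen. Without any 1 Ro array 10 lectins fell. Of 18 scavenger and Fc receptor genes 3 rose and 1 fell, together a share like the 21.3% called among all tested genes. By direction, 5.99% of all tested genes rose and 15.3% fell. Fcgrt, the neonatal Fc receptor, fell 9.03-fold (4064 and 2871 without LPS and 364 and 220.1 with it), and the scavenger receptor genes Marco (2.52 ± 0.63), Olr1 (2.01 ± 0.55) and Itgav (1.59 ± 0.33) rose. None of these 3 rises held without the BALB/c Ro array (adjusted p of 0.142 for Itgav and 0.416 for Olr1), and for Marco the adjusted p was 0.260 without the BALB/c array with Ro and LPS.

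Complement genes fell in 8 of 14 and 1 rose. The 3 genes of C1q, the first component of the classical pathway and a product of macrophages and dendritic cells, fell together: C1qa had 10869 and 10020.0 without LPS and 289 and 472 with it (-4.42 ± 0.26, 21.3-fold lower), C1qb 6437 and 8544 without LPS and 91.6 and 533 with it (-4.59 ± 0.50) and C1qc 8235 and 8868 without LPS and 201 and 482 with it (-4.36 ± 0.35). Cfb, factor B of the alternative pathway, rose 20.6-fold (57.6 and 60.2 without LPS and 898 and 1601 with it). Genes of alternative activation fell in 6 of 19 and rose in 1, Arg1. Next to the lectins the falls included Egr2 (-3.38 ± 0.45) and Pparg, a nuclear receptor of lipid metabolism that was at background with LPS (-2.38 ± 0.29). Lysosomal protease and hydrolase genes fell in 6 of 19 and rose in 1. Naaa, an acid amidase, fell 8.93-fold, the glucuronidase gene Gusb 5.86-fold and the hexosaminidase gene Hexa 2.86-fold, while the acid lipase gene Lipa had -1.47 ± 0.24 and was lost without strain in the model. The rise was Lgmn, an asparagine-specific protease (1.15 ± 0.18), which was lost without either BALB/c Ro array (adjusted p up to 0.0736).

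Markers of macrophages and monocytes moved with these groups: 8 of 17 fell and 2 rose. Their summed signal was 52010.5 and 57108 with Ro and 14476 and 21327 with Ro and LPS. Csf1r, the receptor for the macrophage growth factor, fell from 10051 and 9236 to 819 and 2367, whereas Adgre1, which encodes F4/80, had 3042 and 2802 without LPS and 1519 and 2537 with it and was not called. Ccr2 was at background on both arrays with LPS, and Cd163 was at background on all 4. Whether these markers account for any part of the lectin, complement and lysosomal changes was not tested, and in such mixed cultures fewer cells of a type and less RNA per cell cannot be told apart.

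Of granulocyte markers 7 of 16 fell and 2 rose. Their summed signal went from 13283 and 41176 to 4319 and 12315. S100a9 (3501 and 10738 without LPS and 57.2 and 582 with it) and S100a8 (3565 and 10297 without LPS and 104 and 794 with it), which encode calprotectin, were higher in BL6 in both states. Ngp (-3.97 ± 0.82) and Ltf (-3.62 ± 0.82), granule protein genes, were lost without the BL6 Ro array or the BALB/c array with Ro and LPS (adjusted p up to 0.0609 and 0.128), and without either of these arrays 3 of the 16 fell. The rises were Lcn2 (2.32 ± 0.62) and Orm1 (2.80 ± 0.39), both named after their values were seen.

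Among 17 markers of conventional dendritic cells 5 fell and 3 rose, with a summed signal of 49028 and 47542 before and 48101 and 46752 after LPS. Members moved in opposite directions within this sum. Irf8 rose and Ccr7, which was not called, went from 6034 and 5347 to 12413 and 12282. Itgae and Naaa fell, as did Cd209a, from 2298 and 3379 to 15.4 and 36.8. The like sums therefore do not measure how many dendritic cells were present. Without either Ro array 1 of these 17 rose. Of the 5 Langerhans cell markers 3 fell: Cd207, which encodes langerin (1649 and 298 without LPS and 29.0 and 3.45 with it), Cdh1, which encodes E-cadherin (3159 and 2377 without LPS and 60.3 and 93.2 with it), and the integrin gene Itgae (1056 and 618 without LPS and 28.0 and 18.4 with it). Epcam was not called, and Cd1d1, which presents lipids, rose 3.90-fold. Without any 1 Ro array the same counts of 3 falls and 1 rise were found.

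In 6 lists of markers of other lineages 8 of 38 tested members were called (21.1%, against 21.3% of all genes). Of 9 eosinophil, basophil and mast cell markers 1 fell, Siglecf (-2.95 ± 0.50), with summed signals of 851 and 4687 before and 214 and 974 after LPS. None of 3 T and NK cell markers was called by limma (adjusted p of 0.963, 0.227 and 0.876 for Prf1, Cd8a and Zap70), Prf1 being at background on all 4 arrays and Zap70 having 251 and 217 without LPS and 119 and 248 with it. Of 5 B cell markers Ighm fell (1627 and 739 without LPS and 60.1 and 31.4 with it) and Blnk rose (1078 and 407 without LPS and 2863 and 3242 with it), while Cd79b was at background on every Ro array. Blnk was lost without 3 of the 4 arrays (adjusted p up to 0.123). Of 6 plasmacytoid dendritic cell markers Bst2, also an interferon stimulated gene, rose (1.94 ± 0.23) and Spib fell (-2.16 ± 0.44), the latter lost without either BALB/c Ro array (adjusted p up to 0.0708). In the erythroid and megakaryocyte list of 7 Car2 rose (1.48 ± 0.38) and Ppbp fell, and neither held without the BALB/c array with Ro and LPS (adjusted p up to 0.194 for Car2 over 8 arrays that each removed its call). Of 8 stromal markers Lum rose from background (3.38 ± 0.50).

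Mitosis genes fell in 22 of 24 and rose in none, with the lowest median of the same 28 lists (-3.59). Ube2c, which loads ubiquitin for the anaphase promoting complex, had 2406 and 2594 without LPS and 16.8 and 49.7 with it (-5.42 ± 0.57), and Cdc20, an activator of that complex, 2528 and 1834 without LPS and 30.9 and 28.5 with it (-5.23 ± 0.32). Ccnb2, a mitotic cyclin (-4.97 ± 0.38), and Birc5, which encodes survivin (-4.72 ± 0.41), followed. The summed signal of the 24 was 29157 and 24775 with Ro and 3487 and 2962 with Ro and LPS. DNA replication genes fell in 21 of 26 and rose in none (median -2.24). Rrm2, a subunit of ribonucleotide reductase, had 1967 and 1841 without LPS and 30.5 and 47.0 with it. The replicative helicase genes Mcm5 (-3.66 ± 0.54) and Mcm2 (-3.10 ± 0.51) and the thymidine kinase gene Tk1 (-3.27 ± 0.33) fell as well. Without any 1 Ro array 20 to 22 mitosis and 17 to 21 replication genes fell.

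The motif TTTGAA, known as the cell cycle homology region, stood in the promoters of 9 of 20 mitosis genes and CCAAT in 17 of 20. Among tested genes they stood in 13.0% and 40.1%, among genes that fell in 15.9% and 43.6%, and among replication genes in 2 and 14 of 21. Cdc20 and Ube2c are shown as the mitosis genes with the largest falls. Cdc20 holds both motifs close to the start, and Ube2c holds the first near the start and CCAAT, in either orientation, repeatedly upstream.
Cdc20, chr4:118437344-118437593, minus strand: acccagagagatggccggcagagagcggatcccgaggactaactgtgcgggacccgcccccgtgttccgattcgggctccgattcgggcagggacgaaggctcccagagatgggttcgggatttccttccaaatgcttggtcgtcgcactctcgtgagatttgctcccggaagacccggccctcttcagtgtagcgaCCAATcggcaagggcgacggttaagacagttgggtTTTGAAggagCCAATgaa
Ube2c, chr2:164769679-164769928, plus strand: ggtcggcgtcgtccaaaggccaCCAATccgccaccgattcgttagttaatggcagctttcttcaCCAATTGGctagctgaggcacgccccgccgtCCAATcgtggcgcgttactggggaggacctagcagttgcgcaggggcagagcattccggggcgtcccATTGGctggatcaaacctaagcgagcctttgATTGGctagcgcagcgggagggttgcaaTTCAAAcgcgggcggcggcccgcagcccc
Both motifs are short and stand in promoters of 18.3% and 37.5% of all genes in the table.

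Among receptors for myeloid growth factors and cytokines 6 of 19 fell and 1 rose. Besides Csf1r the falls held the TGF-beta receptor genes Tgfbr2 (1918 and 1178 without LPS and 232 and 208 with it) and Tgfbr1 (2951 and 2418 without LPS and 436 and 566 with it), 5.07-fold and 4.13-fold lower, and the rise was Tnfrsf1b, a receptor of TNF (4.07-fold). A further probe set of Tgfbr2 had -0.33 and was not called. Further ones of Tgfbr1 had -1.27 (called) and -0.91 (not called). Of 11 chemokine receptor genes 2 rose and 3 fell. Ccrl2, which binds chemerin, rose 15.1-fold (180.2 and 112 without LPS and 2144 and 1635 with it), and Cxcr5, the receptor that leads to B cell follicles, 9.66-fold, with 996 in BALB/c and 186 in BL6 after LPS. Ccr6 fell (1445 and 134 without LPS and 23.2 and 27.0 with it), mainly in BALB/c where it was high, and was lost without either BALB/c Ro array (adjusted p up to 0.134). The remaining fall was Ccr1 (-1.64 ± 0.48, named after its value was seen).

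MHC class II genes fell in 3 of 13 and rose in none, a share like the 21.3% called among all tested genes. The falls were H2-DMa, which edits peptide loading (-1.31 ± 0.22), Ciita, the master regulator of the class (-1.10 ± 0.33), and Marchf1, which marks class II for turnover (-1.44 ± 0.48). Ciita was lost without either BALB/c Ro array (adjusted p up to 0.113) and Marchf1 without 9 of the 12 arrays (up to 0.324). H2-Ab1 was not called. Without the BALB/c array with Ro and LPS 1 class II gene fell. In MHC class I processing 2 of 15 rose, the immunoproteasome gene Psmb9 (2.34-fold) and the peptide transporter gene Tap1 (2.35-fold, lost without either BL6 Ro array, adjusted p up to 0.195). The chaperone genes Calr (-0.22 ± 0.18) and Pdia3 (-0.25 ± 0.20) were called lower and lay close to the median gene. Both calls were lost without any 1 of the 4 Ro arrays (adjusted p up to 0.265 and 0.217) and when arrays were centred on their medians.

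Glycolysis genes rose in 5 of 18 and fell in none. Pfkl (1.84 ± 0.28), a phosphofructokinase, and Tpi1 (3.0-fold, 3054 and 2923 without LPS and 6291 and 7969 with it) rose most, with Slc16a3, a lactate exporter (1.32 ± 0.33), and Hk2, a hexokinase (1.11 ± 0.24). Without the BALB/c Ro array, the BL6 Ro array or the BL6 array with Ro and LPS 2 genes of the list rose. Without the last of these the adjusted p was 0.327 for Slc16a3 and 0.188 for Hk2. Oxidative phosphorylation genes fell in 13 of 34, by small amounts around a median of -0.11. Ndufs1 (-1.04 ± 0.25), Ndufb5 (-0.73 ± 0.20) and Ndufv1 (-0.65 ± 0.21) of complex I and Sdhc of complex II (-0.75 ± 0.22) had the largest changes. Without the BALB/c Ro array 1 gene of this list fell, and without the others 3, 4 and 6. Ndufb5, Ndufv1 and Sdhc were not called when arrays were centred on their medians, and Ndufs1, Ndufv1 and Sdhc were lost without 2 or 3 of the Ro arrays (adjusted p up to 0.0972, 0.150 and 0.0575). Cholesterol synthesis genes fell in 6 of 19, with Dhcr7 (-2.15 ± 0.28), Sqle (-1.51 ± 0.31) and Ebp (-1.18 ± 0.22), and 1 rose, Pmvk (2.33 ± 0.41). Without the BL6 array with Ro and LPS 3 of this list fell, and without the BALB/c Ro array 2 fell and Pmvk was not called (adjusted p = 0.0530), and Sqle was lost without 3 Ro arrays (up to 0.0575).

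Transcription factors of dendritic cells rose in 6 of 21 and fell in 5. Batf, an AP-1 family factor, rose 8.01-fold (349 and 486 without LPS and 2675 and 2691 with it), and Irf8 had 2812 and 2883 without LPS and 11254 and 10558 with it. Cebpa, a factor of granulocyte and monocyte development, fell 12.9-fold (1982 and 1143 without LPS and 59.7 and 98.7 with it), Egr2 10.4-fold, and Egr1 to background (-3.31 ± 0.71), the last lost without the BALB/c array with Ro and LPS (adjusted p = 0.0981) or the BL6 Ro array. Among 13 apoptosis and survival genes 1 was called, Bid, which fell (-1.75 ± 0.39).

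Among retinoid receptors and enzymes 3 of 17 rose and 2 fell, against 5.99% and 15.3% of all tested genes. Rara, the gene of retinoic acid receptor alpha, had 282 and 80.5 without LPS and 69.6 and 19.4 with it and was not called (-1.28 ± 0.38, adjusted p = 0.0548), although both strains were lower with LPS. Aldh1a2, which makes retinoic acid, had 1011 and 506 without LPS and 1654 and 570.2 with it and was not called either (adjusted p = 0.213). Tgm2, a transglutaminase known to respond to retinoic acid, rose 2.96-fold (3335 and 2280.0 without LPS and 6511 and 6389.7 with it). Cyp26b1, which degrades retinoic acid, rose from background (1.54 ± 0.41), and Ppard had 1.24 ± 0.25. Cyp26b1 was lost when any of 8 arrays was left out (adjusted p up to 0.191) and Ppard without any 1 of the 4 Ro arrays (up to 0.143). The falls were Pparg and Dhrs3, a retinaldehyde reductase (-1.11 ± 0.28, named after its value was seen).

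Of 13 heat shock chaperone genes 2 rose and 1 fell, together a share like the 21.3% called among all tested genes, of which 5.99% rose and 15.3% fell. Hspa1b had 52.5 and 34.2 without LPS and 142 and 216 with it (2.05 ± 0.34), and Hspa1a 15.6 and 17.3 without LPS and 162 and 198 with it (2.93 ± 0.42). The pair are near-identical copies, so probes may be shared. Hspd1, a mitochondrial chaperone gene, fell (-0.77 ± 0.25) but not without 3 of the Ro arrays (adjusted p up to 0.0850) or when arrays were centred on their medians.

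The LPS response with Ro was next compared with the response without retinoid and with that in RA cultures, each as an interaction in the same model. Both tests share the 4 Ro arrays. The response differed from that without retinoid for 77 genes (0.62% of those tested), 30 with a higher change in Ro (0.241%) and 47 with a lower one (0.378%). From the response with RA it differed for 68 genes (0.547%), 22 higher (0.177%) and 46 lower (0.37%). LPS itself changed 3699 genes without retinoid (29.8%), 7.96% higher and 21.8% lower, and 2908 with RA (23.4%), 6.53% higher and 16.9% lower. These counts rest on single arrays. Against no retinoid 2 genes were called without the BALB/c array with Ro and LPS, 7 and 9 without the BALB/c and BL6 Ro arrays, 36 and 7 without the BALB/c and BL6 control arrays, 8 without the BL6 LPS array, 43 without either RA array, and 149 and 148 without either array with RA and LPS. Against RA the corresponding counts were 2, 6 and 9 for those 3 Ro arrays, 6 and 17 without the RA arrays, 21 without the BALB/c culture given RA and LPS, and 45 without the BL6 array with Ro and LPS or either LPS array.

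Apoc2, an activator of lipoprotein lipase, went in opposite directions. Its signals with Ro were 195 and 299 without LPS and 5545 and 3413 with it, a rise of 4.43 ± 0.33. Without retinoid they were 1960.2 and 2278 without LPS and 861 and 619 with it, and with RA 4346 and 5194 without LPS and 916 and 1631 with it. The Ro cultures thus started lowest and ended highest, and the difference between responses was 5.45 ± 0.47 against no retinoid (adjusted p = 0.00496) and 6.0 ± 0.47 against RA (adjusted p = 0.00349). Both calls held without each of the 12 arrays. Pdgfc, a growth factor gene, had signals of 73.0 and 169 without LPS and 267 and 292 with it in the Ro cultures. In those without retinoid it had 412 and 553 without LPS and 38.8 and 36.9 with it, and in those with RA 830.0 and 1056 without LPS and 45.6 and 86.9 with it. The differences were 4.26 ± 0.43 and 4.76 ± 0.43 (adjusted p = 0.00496 and 0.00349), the first lost without the BALB/c array with Ro and LPS (adjusted p = 0.0514), and its rise within Ro cultures was lost without either BALB/c Ro array (up to 0.168).

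Several genes that LPS raised strongly elsewhere rose less or not at all with Ro. Hspa1b, low in all cultures without LPS, reached 142 and 216 with Ro and LPS, but 4337 and 5449 with LPS alone and 3947 and 2510.5 with RA and LPS. The differences were -5.03 ± 0.47 and -4.48 ± 0.47 (adjusted p = 0.00496 and 0.0100). Adm, which encodes the peptide adrenomedullin, had 43.4 and 55.4 with Ro and LPS, against 809 and 892 with LPS alone and 249.9 and 192 with RA and LPS (-4.71 ± 0.48 and -3.22 ± 0.48). Hcar2, a receptor for niacin and ketone bodies, fell with LPS in Ro cultures (1454 and 1028 without LPS and 369 and 340.2 with it) and had a change of 4.16 ± 0.48 without retinoid and 2.37 ± 0.48 with RA. G530011O06Rik (1.06 ± 0.27 with Ro, 5.57 ± 0.27 without retinoid; the call of the difference was lost without strain in the model, adjusted p = 0.217) and the kinase gene Wnk2 (0.58 ± 0.32 and 4.09 ± 0.32) had the same order, and so did Pdpn, which encodes podoplanin (0.12 ± 0.27 and 2.97 ± 0.27). Without the BALB/c array with Ro and LPS the call against no retinoid was lost for Hspa1b (adjusted p = 0.0589), Adm (0.0563) and Hcar2 (0.0820), and for Hcar2 also without the BL6 Ro array or the BL6 LPS array. Against RA the calls of Hspa1b, Adm and Hcar2 were lost when any of 2, 6 and 10 arrays was left out (up to 0.0683, 0.130 and 0.188), and the fall of Hcar2 within Ro cultures without any 1 of the 4 (up to 0.254). The calls of Wnk2 and Pdpn against no retinoid were each lost when any of 5 arrays was left out (up to 0.0903 and 0.0893). Against no retinoid, 22 of the 47 lower genes rose without retinoid and were not called with Ro, 6 rose in both, 10 fell with Ro and were not called without retinoid (5 of these were at background without retinoid in both states, where no fall could be measured), 4 fell in both, and the other 5 were called in opposite directions.

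**Figure D4:**
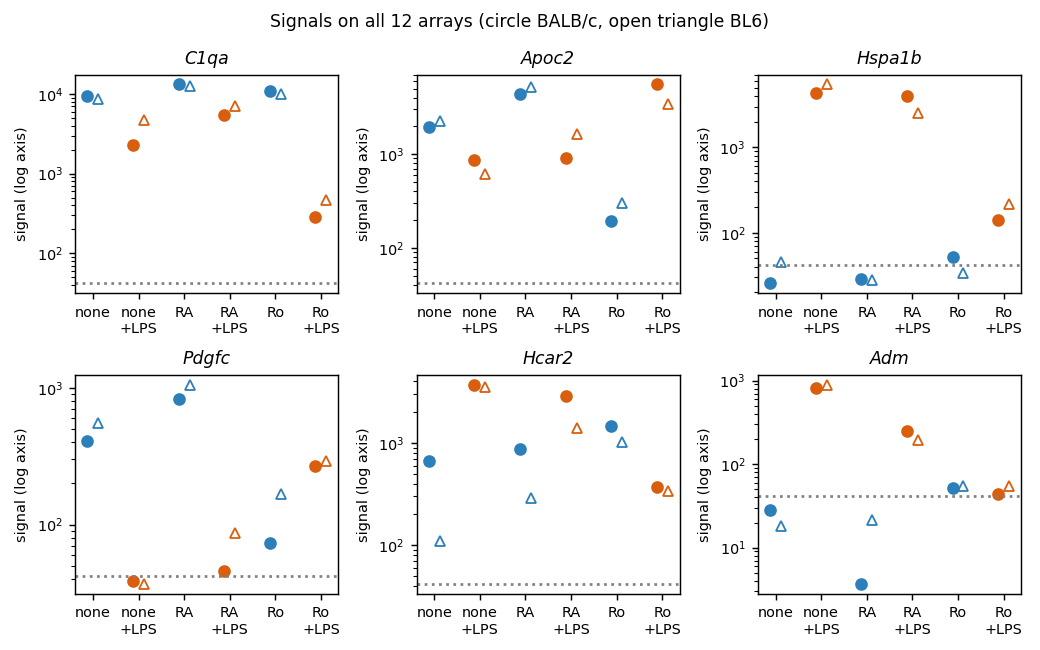
Signals (log axis) of 6 genes on all 12 arrays, by retinoid and LPS; blue is without and orange with LPS, circles are BALB/c, open triangles BL6, and the dotted line is the background level of 41.8. With LPS, C1qa stays above 2000 except in the Ro cultures, where it is 289 and 472. In the Ro cultures Apoc2, Pdgfc and Hcar2 run the other way from the remaining cultures.

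C1qa and C1qc fell further with Ro than elsewhere. C1qa started at like levels in all cultures, 10869 and 10020.0 with Ro, 9447 and 8674 without retinoid and 13117 and 12715 with RA. With LPS it was 289 and 472 with Ro, 2303 and 4683 without retinoid and 5435 and 6944 with RA. The differences of the responses were -3.45 ± 0.37 (adjusted p = 0.00992) and -3.71 ± 0.37 (adjusted p = 0.00753), and C1qc had -2.94 ± 0.50 and -3.02 ± 0.50. C1qa lost both calls without the BALB/c array with Ro and LPS (adjusted p = 0.0806 and 0.0683) and the first also without the BL6 control array, and C1qc lost them when any of 7 and of 8 arrays was left out (up to 0.168 and 0.159). The summed macrophage markers, which include C1q, fell by the values given above, and their part in this difference was not tested. Ctnnd2, a catenin gene, fell with LPS in Ro cultures (265 and 273 without LPS and 2.74 and 14.2 with it). It was at background in the other cultures already before LPS (17.6 and 15.9 without retinoid and 6.17 and 9.75 with RA), so no fall could be measured there and the interactions restate its level with Ro. It lost those calls when any of 5 and of 4 arrays was left out (up to 0.0711 and 0.0834).

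For some genes the levels before LPS lay further apart between cultures than those after it. Cd40 ended at 9138 and 7330.2 with Ro and LPS and at 8499 and 8054 with LPS alone, but was 940.5 and 551 with Ro against 279 and 116 without retinoid. Its rise was smaller than with RA (-2.09 ± 0.37, adjusted p = 0.0373), a call lost when any of 8 arrays was left out (up to 0.182), and the difference from no retinoid was not called (adjusted p = 0.0503). Asgr2 was 5628 and 5941 with Ro, 1269 and 364 without retinoid and 63.8 and 92.2 with RA, and at background with LPS in all 3. Its fall was larger than with RA (-5.13 ± 0.67, adjusted p = 0.0229), a call lost when any of 5 arrays was left out (up to 0.0909). Cd207 was high only with Ro and no LPS and below background on each of the other 10 arrays, and its interactions passed at the deposited scaling and not after quantile normalization (adjusted p = 0.0563 and 0.0628).

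**Figure D5:**
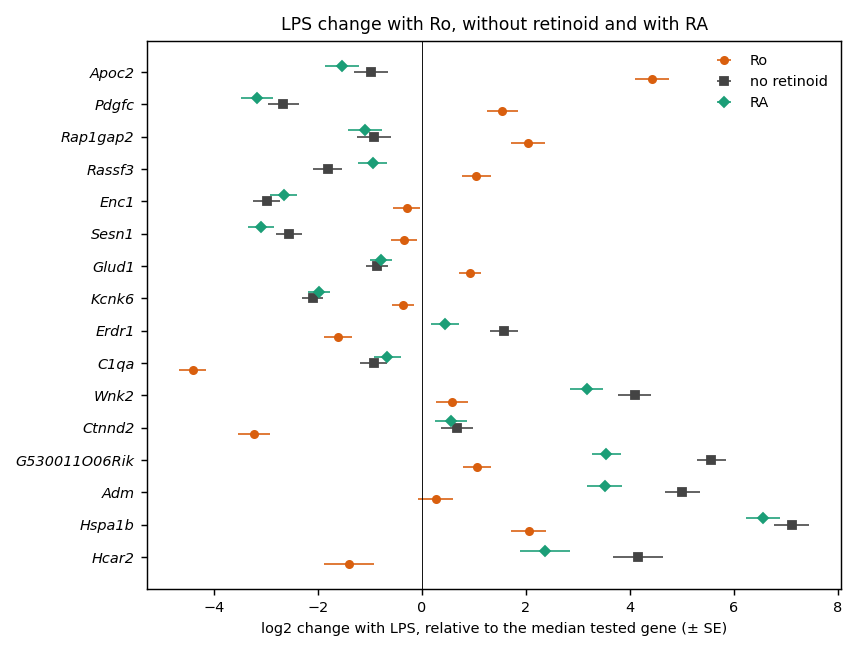
Log2 change with LPS, relative to the median tested gene, with Ro (orange circles), without retinoid (black squares) and with RA (green diamonds) for the 8 genes per direction with the smallest adjusted p against no retinoid; bars are SE. For genes that include Apoc2, Pdgfc and Glud1 the orange point lies to the right of 0 and the others to the left. For Hcar2, Erdr1 and Ctnnd2 the reverse holds.

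In the other direction, 23 of the 30 genes with a higher change in Ro fell without retinoid and were not called lower with Ro, and 6 rose with Ro and were not called without retinoid. Enc1 (-0.29 ± 0.26 with Ro, -2.99 ± 0.26 without retinoid and -2.66 ± 0.26 with RA), Sesn1, a stress-induced regulator of growth (-0.35 ± 0.25, -2.56 ± 0.25 and -3.10 ± 0.25), and Rassf3 (1.04 ± 0.28, -1.81 ± 0.28 and -0.95 ± 0.28) are examples. Rap1gap2, which inactivates the small GTPase Rap1, rose with Ro (72.7 and 25.6 without LPS and 246 and 132 with it) and had -0.93 ± 0.32 and -1.10 ± 0.32 elsewhere. Lgmn rose with Ro and had 0.02 ± 0.18 and -0.63 ± 0.18. Each of these 5 calls against no retinoid was lost when any of 5 to 10 arrays was left out (adjusted p up to 0.107, 0.118, 0.0836, 0.100 and 0.225).

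Each gene was represented by 1 probe set. Among the named genes, 53 of those called had further probe sets above the filter, none of which was called in the opposite direction. Of these genes 19 had at least 1 that was not called. In a fit of all probe sets, uncalled ones had -0.33 for Tgfbr2, 0.50 and 0.80 for Stat3, 0.45 for Tap1 and 0.32 for Cxcl11. That of Pdgfc had 1.08 with LPS in the Ro cultures. Those of Pycard had -0.32 and -0.75, those of Bid -1.15 and -1.61, and those of Ighm -0.84 to 0.03. Further probe sets of Stat3 (1.10) and Ighm (-3.42) were called in the same direction.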

How the data were processed

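Gene expression was measured in 12 cultures on Affymetrix mouse arrays. The deposited values are linear intensities, 1 per probe set, computed with MAS5 per the submitters' processing notes; the version and target intensity are not given in the sources used here. Of 45101 probe sets 34945 name 1 gene, 932 several and 9160 none, and 64 are controls. Those above their own array's median on at least 2 arrays were kept, and the probe set with the highest mean stood for a gene, which left 12429 genes.

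A linear model of log2(intensity + 16) with 6 conditions and strain was fitted to all 12 arrays (R 4.3.3, limma 3.58.1, functions lmFit and eBayes, trend on). The fit was run at the deposited scaling and after quantile normalization. Strain pairs the arrays by the labels, and deviations of arrays of the same strain correlated with r of 0.304 to 0.699 over 15 pairs of conditions (0.516 for Ro and Ro with LPS). The comparison of LPS in Ro cultures was tried on simulated data, with changes placed only in brighter genes. The interactions were not simulated.

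Named genes are the 12 largest rises and falls, up to 4 called genes per list, a fixed set of genes, and 8 genes per direction and interaction. The members and lists were chosen with earlier results of these data known. Promoters are RefSeq's, of build GRCm38.p6. Alternatives to scaling, added constant, filter, probe set choice, variance model, arrays fitted and strain term, and leaving out each array, are described in the closing section. Precision is limited by the number of arrays.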

Additional observations from a re-analysis of the deposited data

Results flagged for a closer look

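The response to LPS differed between Ro cultures and cultures without retinoid for 77 genes, and between Ro and RA cultures for 68, by the interaction in limma at both scalings. Values below are differences of log2 changes, Ro minus the other. Against no retinoid the higher changes among the named genes were those of Apoc2 (5.45), Pdgfc (4.26), Rap1gap2 (3.01), Rassf3 (2.89), Enc1 (2.74), Sesn1 (2.25), Cd1d1 (1.91), Glud1 (1.84), Kcnk6 (1.78) and Lgmn (1.17). The lower ones were Hcar2 (-5.52), Hspa1b (-5.03), Adm (-4.71), G530011O06Rik (-4.47), Hspa1a (-4.32), Ctnnd2 (-3.87), Wnk2 (-3.48), C1qa (-3.45), Erdr1 (-3.16), Cd7 (-3.12), C1qc (-2.94), Pdpn (-2.81) and Klk1b11 (-2.46). Of these 23 genes, 2 kept the call without each array left out, Apoc2 and G530011O06Rik, and the latter lost it without strain in the model (adjusted p = 0.217).

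Against RA the higher changes were those of Apoc2 (6.00), Pdgfc (4.76), Rap1gap2 (3.17), Gm13889 (3.15), Sesn1 (2.78), Enc1 (2.41), Rassf3 (2.03), Lgmn (1.82), Rsad2 (1.79), Glud1 (1.75), Kcnk6 (1.66) and Crip1 (1.60). The lower ones were Asgr2 (-5.13), Bpifc (-4.56), Hspa1b (-4.48), Ctnnd2 (-3.76), Hcar2 (-3.73), C1qa (-3.71), Adm (-3.22), Cd7 (-3.06), Pdpn (-3.03), C1qc (-3.02), Wnk2 (-2.56), G530011O06Rik (-2.45), Klk1b11 (-2.42), Cfb (-2.24), Cd40 (-2.09) and Erdr1 (-2.03). Of these 28 genes, 2 kept the call without each array left out, Apoc2 and Pdgfc. Klk1b11, Hspa1a and Hspa1b have near-identical copies, so their values are uncertain for each gene. Both comparisons share the Ro arrays.

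Cd7 and Ctnnd2 were at background with and without LPS in the cultures without retinoid and in those with RA, where a fall is not measurable. Cd7 had signals of 137 and 161 with Ro alone. Their differences restate that both genes were above background only with Ro and no LPS. Gm13889 was at background in the RA cultures in both states. Bpifc was at background with RA and no LPS (15.7 and 0.273), so no fall could be measured in the RA cultures. There it rose with LPS, to 51.4 and 34.6 (1.77 ± 0.37), so its difference holds this rise beside the fall with Ro. Of the 46 lower genes against RA, 14 were at background with RA and no LPS by group mean. Of the 47 lower genes against no retinoid, 11 were at background without retinoid and LPS.

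Relative to each strain's own median gene, the change was of opposite sign in the strains for 2 named genes. For Enc1 it was 0.10 in BALB/c and -0.66 in BL6, a difference of -0.76, although its signals were lower with LPS in both strains. For Zap70 it was -0.49 and 0.40, a difference of 0.89. With 1 pair of arrays in each strain these differences were not tested, and neither gene was called in the Ro cultures.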

How the results depend on the processing

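Genes called for LPS in Ro cultures, for its difference from no retinoid and for its difference from RA numbered 2643, 77 and 68. Without strain in the model (no replicate block) they were 1545, 11 and 6. The deposited scaling alone gave 3728, 80 and 80, quantile normalization alone 3430, 174 and 112, and median centring of each array 3881, 209 and 132. With 1 added to the values 2537, 40 and 14 were called, and with 64 added 2658, 97 and 115. With no filter on dim probe sets the counts were 2352, 41 and 20, and with all probe sets 4017, 59 and 28, where more features were tested. Without the intensity trend they were 2406, 32 and 24, and with only the arrays compared, which leaves fewer arrays, 3369, 51 and 22. Leaving out 1 array gave 1267 to 2964, 2 to 149 and 2 to 51. Beyond what those constructions show, the cause was not tested. Over the 4910 alternatives to values of named genes no called value reversed, 4228 kept direction and call, and 644 lost the call. A further 32 gained a call in the same direction, and 6, all of genes without a call, changed sign. Of 147 named genes called for LPS in Ro cultures, 108 kept the call without each array left out, and 119 without strain in the model. Of 1672 alternative list counts 232 moved by over 1.5 times. With 2 arrays per condition, signals under the background level give only bounds, and the size of those changes depends on the added constant.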
